A study of Homo sapiens with 21 samples.

Results

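The insulin-like growth factor binding proteins are the secreted proteins encoded by IGFBP1 to IGFBP7. All 7 genes were looked up by symbol in the annotation of the array, and 6 of them had a probe set of their own, exactly 1 each, out of 18374 genes with such a probe set. The only probe set of IGFBP6 carries the symbols IGFBP6 and C12orf57 together, so its values belong to the shared probe set and are not given as IGFBP6 values. The family was chosen from the differences between each clone and the vector clone V22 in these same data. Those differences are therefore given as a description, with no test. The later comparison of parkin and vector clones as groups is built on the same differences, so its p-values are no independent evidence.

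Expression was measured with Affymetrix whole-transcript arrays in the human glioblastoma cell line U-87MG, an established line. The tested cells were 3 stable parkin-expressing clones (PK7, PK19 and PK25), and their controls were 3 clones that carry the vector alone (V8, V17 and V22). Each clone was measured on 3 arrays, numbered as sets, and V22 on 6, which makes 9 parkin and 12 vector arrays of 26947 probe sets. The prefixes of the scanner file names separate V8, V17 and V22 sets 1 to 3, read here as a first series, from the parkin clones and V22 sets 4 to 6, read as a second series. All cells were seeded at the same density and cultured for the same time, and no drug or further allele is named. Each line is 1 clone, so in a comparison of a single clone with V22 parkin expression and clonal differences cannot be told apart, and nothing in the labels shows that the arrays of a clone came from separate cultures. Values are log2 of the deposited RMA intensity, in which 1 unit is 2-fold, and the number of arrays limits their precision.

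IGFBPs bind the insulin-like growth factors IGF1 and IGF2 with high affinity, carry them outside cells and hold them away from the IGF1 receptor, while IGFBP7 binds them only weakly. Proteases such as PAPPA, HTRA1 and ADAM28 cut particular IGFBPs and so free the ligand, and stanniocalcins inhibit PAPPA. IGFBP1 and IGFBP3 are also known as genes that hypoxia induces, and glioma cells secrete several members of the family.

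The promoters of IGFBP3, IGFBP4 and IGFBP5 are shown because the clone means spanned the widest range in these 3 genes. Each stretch is the 250 bases before the annotated start, written 5′ to 3′ along the gene's own strand, from RefSeq on GRCh38.p14. Capitals mark a GC box (GGGCGG on either strand) or a TATA-like element, which is the TATA box (TATAAA), its first variant (TATATA) or its second variant (TATTTA), read on both strands. The variants were added to the search after the sequences had been seen. IGFBP3 lies at chr7:45921273-45921522 on the minus strand, IGFBP4 at chr17:40443200-40443449 on the plus strand and IGFBP5 at chr2:216695550-216695799 on the minus strand.
IGFBP3: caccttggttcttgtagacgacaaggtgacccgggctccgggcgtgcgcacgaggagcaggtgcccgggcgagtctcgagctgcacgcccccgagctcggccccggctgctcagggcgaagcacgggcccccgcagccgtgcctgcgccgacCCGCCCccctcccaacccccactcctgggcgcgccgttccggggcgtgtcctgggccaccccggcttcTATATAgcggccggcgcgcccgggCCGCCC
IGFBP4: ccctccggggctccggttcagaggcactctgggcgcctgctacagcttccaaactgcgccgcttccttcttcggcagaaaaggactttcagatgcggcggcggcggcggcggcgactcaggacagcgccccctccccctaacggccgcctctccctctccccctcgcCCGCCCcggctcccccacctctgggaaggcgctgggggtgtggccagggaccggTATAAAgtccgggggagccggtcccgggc
IGFBP5: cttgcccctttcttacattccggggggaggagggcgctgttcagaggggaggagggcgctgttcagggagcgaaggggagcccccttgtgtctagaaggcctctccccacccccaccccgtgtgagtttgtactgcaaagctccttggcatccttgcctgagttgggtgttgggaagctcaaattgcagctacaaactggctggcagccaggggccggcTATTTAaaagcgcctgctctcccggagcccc

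In each of these 3 windows the TATA-like element began close to 30 bases before the start, at -30 in IGFBP3 (the first variant), at -29 in IGFBP4 (the TATA box) and at -31 in IGFBP5 (the second variant). Anywhere in the window, the TATA box occurred in 10.7% of 35116 RefSeq promoter windows of this length, the first variant in 3.73% and the second in 11.7%. The IGFBP3 window also held GC boxes at -98 and -6, and the IGFBP4 window held one at -83, where 42.6% of all windows hold at least 1. The windows differed in CpG content, with 32 CpG dinucleotides in IGFBP3, 24 in IGFBP4 and 8 in IGFBP5 against a median of 11, so that 90.5%, 76.3% and 43.7% of all windows had fewer, in that order. The ACGTG form of the hypoxia response core, on either strand, was in 18.5% of all windows. It was in none of the windows of the 5 members that had a window (IGFBP2, IGFBP3, IGFBP4, IGFBP5 and IGFBP6). The GCGTG form was not searched for, and it can be read in the IGFBP3 window printed above. These matches are of letters only.

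Of the 8 astrocyte and glioma markers, VIM, CD44 and TNC had clone means of 12.5 to 12.9, 11.4 to 12.5 and 10.6 to 11.2, NES of 7.07 to 7.91, GFAP of 6.11 to 6.54 and S100B of 3.88 to 4.19. The other pair varied among clones. CHI3L1, a secreted marker of mesenchymal glioma, differed from V22 by 3.83 in PK7, 1.57 in PK19 and -1.20 in V8. The neural stem cell factor SOX2 differed from V22 by -1.09 in PK19. These clone differences were all at least 2-fold with arrays apart. Within V22, CHI3L1 differed by -1.80 between the series, also past 2-fold, but overlap of arrays was not examined there. Without sets 2 and 5, CHI3L1 was at 3.69 in PK7, 1.64 in PK19 and -1.17 in V8, and SOX2 at -1.30 in PK19. Clone means of the 6 endothelial markers ran from 3.23 (EMCN) to 6.90 (CLDN5), of the 4 blood markers from 2.94 (PTPRC) to 11.5 (CD68), and of the 5 epithelial markers from 4.41 (CDH1) to 7.84 (KRT18). None of these 15 differed at least 2-fold from V22 in any clone with the arrays apart, but without sets 2 and 5 the endothelial receptor TEK did in PK19 (-1.24), and so did SOX2 in PK7 (-1.24). What part these markers have in the IGFBP values was not tested. Array medians lay between 6.21 and 6.37. The introduced parkin transcript itself was not analysed here. The set 2 arrays of PK7 and PK19 stood apart from the other arrays of their clones in several members and in hypoxia targets. The differences of these clones that reached 2-fold are therefore also given without sets 2 and 5. The mean of the hypoxia targets was also highest on set 2 in PK25, V17 and first-series V22.

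Against V22 of the same series, the members fell into 3 kinds of pattern. IGFBP3, IGFBP1 and IGFBP4 were higher in PK7 or PK19, IGFBP5 was lower in all 3 parkin clones and in the vector clone V8, and IGFBP2 and IGFBP7 stayed within 2-fold of V22 in every clone. Counting a member as different where the clone mean lay at least 2-fold from V22 and all 3 arrays of the clone lay on one side of all 3 V22 arrays, 3 of the 6 members differed in PK7 (IGFBP3, IGFBP4 and IGFBP5), where 2.34% of all probe sets did. In PK19, 3 of 6 differed (IGFBP1, IGFBP3 and IGFBP5) against 2.89% of all probe sets, and in PK25 only IGFBP5 did, against 0.226%. Among the vector clones, IGFBP5 alone differed in V8, against 1.01% of all probe sets, and no member did in V17, against 0.0297%. Since this contrast chose the family, nothing is read from these counts.

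**Figure D1:**
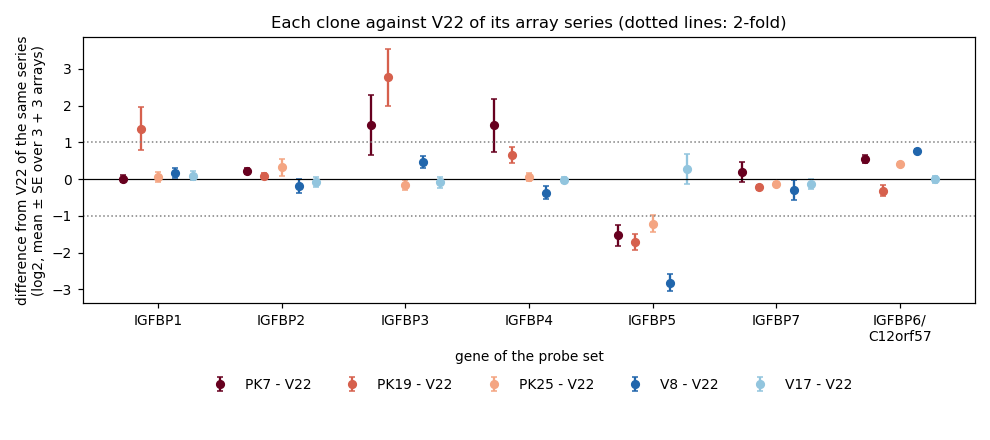
Difference of each clone from V22 of its own array series, in log2 units (vertical axis), for the 6 members with their own probe set and for the probe set shared by IGFBP6 and C12orf57 (horizontal axis). Points are differences of means with SE over 3 and 3 arrays, and dotted lines mark 2-fold. IGFBP3 reached 2.77 in PK19, and IGFBP5 lay below -1 in V8 and in all 3 parkin clones.

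IGFBP3, the main carrier of IGFs in serum and a growth inhibitor in many cell types, showed the largest upward difference in PK19, and in PK7 one as large as that of IGFBP4. Its log2 intensity on sets 1, 2 and 3 was 7.98, 10.34 and 7.84 in PK7, 9.42, 11.53 and 9.11 in PK19, and 6.97, 7.30 and 7.02 in PK25, against 7.11, 7.41 and 7.24 in V22 of the second series. All arrays of PK7 and PK19 were above all V22 arrays, PK25 overlapped V22, and the set 2 array was the highest of each parkin clone. In the first series IGFBP3 was at 8.12, 8.08 and 8.50 in V8 and at 7.52, 7.60 and 7.94 in V17, against 7.61, 7.87 and 7.84 in V22. V8 thus lay above V22 on every array without reaching 2-fold (1.37-fold), and V17 overlapped V22. The difference from V22 was 1.46 ± 0.82 in PK7 (SE over arrays, 2.76-fold higher), 2.77 ± 0.77 in PK19 (6.80-fold higher) and -0.16 ± 0.14 in PK25. Without sets 2 and 5 it was 0.73 in PK7 (1.66-fold) and 2.09 in PK19 (4.25-fold), so that only PK19 remained past 2-fold. PK19 averaged 10.02 ± 1.32 and PK7 8.72 ± 1.41 (SD, n = 3 arrays each), and the arrays of these clones overlapped. In these bulk samples, fewer cells that express a gene and less RNA of it per cell cannot be told apart.

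IGFBP1, the neighbour of IGFBP3 on chromosome 7 and in liver a target of insulin signalling, was higher in PK19 alone. It was at 7.84, 9.61 and 7.86 in PK19, at 7.07, 7.08 and 7.06 in PK7 and at 7.01, 7.06 and 7.28 in PK25, against 6.97, 7.24 and 6.97 in V22 of the second series. Every PK19 array was above every other array of the 2 series, while PK7 and PK25 overlapped V22. In V8 of the first series it was at 7.16, 6.82 and 6.93, and in V17 at 6.80, 6.84 and 7.05, against 6.72, 7.00 and 6.68 in V22, and these clones overlapped. The PK19 difference from V22 was 1.37 ± 0.59 (SE, 2.59-fold higher) with all arrays and 0.88 (1.84-fold) without sets 2 and 5, which no longer reached 2-fold. Neither PK7 (0.01 ± 0.091) nor PK25 (0.06 ± 0.12) stood apart from V22.

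IGFBP4, an inhibitor of IGF action that PAPPA cleaves, was highest in PK7. It was at 8.29, 10.41 and 8.25 in PK7, 8.02, 8.59 and 7.92 in PK19 and 7.50, 7.66 and 7.59 in PK25, against 7.44, 7.70 and 7.42 in V22 of the second series. The arrays of PK7 and PK19 lay above all V22 arrays, and those of PK25 overlapped them. In the first series IGFBP4 was at 7.48, 6.95 and 7.42 in V8, below every V22 array, and at 7.63, 7.53 and 7.75 in V17, against 7.73, 7.65 and 7.59 in V22. The differences from V22 were 1.46 ± 0.72 in PK7 (SE, 2.76-fold higher), 0.65 ± 0.23 in PK19, 0.06 ± 0.10 in PK25, and V8 and V17 differed by -0.37 ± 0.17 and -0.02 ± 0.076. Without sets 2 and 5 the PK7 value was 0.84 (1.79-fold), below 2-fold, and the PK19 value was 0.54. PK7 averaged 8.99 ± 1.24 and PK19 8.17 ± 0.36 (SD, n = 3 arrays each), with overlapping arrays.

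**Figure D2:**
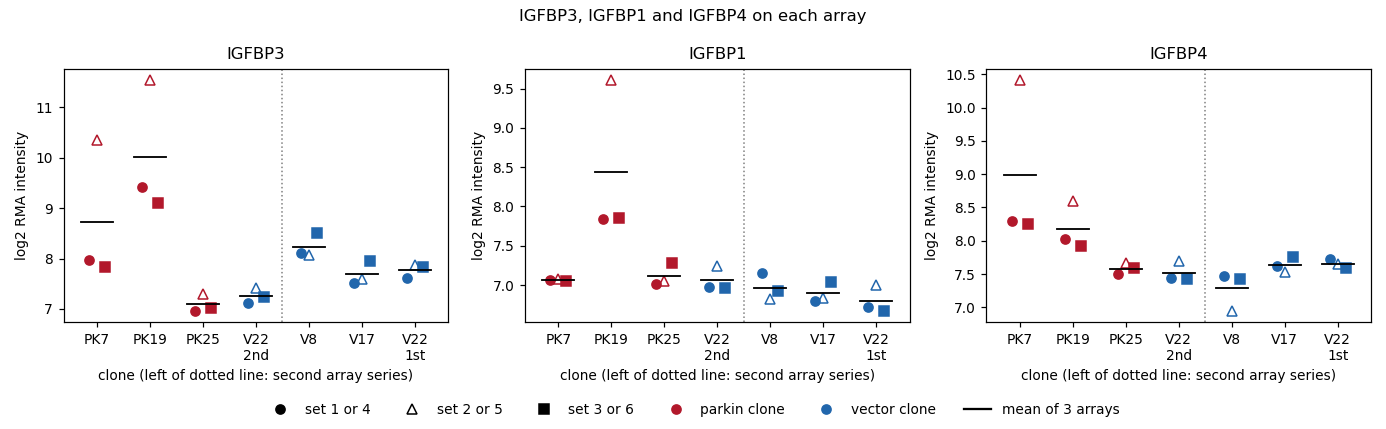
log2 RMA intensity (vertical axes) of IGFBP3, IGFBP1 and IGFBP4 on each of the 21 arrays by clone (horizontal axes), with parkin clones in red, vector clones in blue, the mean of 3 arrays as a bar and set 2 or 5 as open triangles. The open triangles of PK19 reach 11.53 for IGFBP3 and 9.61 for IGFBP1, and that of PK7 reaches 10.41 for IGFBP4.

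IGFBP3 was high on the set 2 arrays of both clones, IGFBP4 at least 2-fold so in PK7 only and IGFBP1 in PK19 only. The set 2 array minus the mean of the other 2 arrays was 2.43 for IGFBP3, 2.14 for IGFBP4 and 0.02 for IGFBP1 in PK7, and 2.27, 0.62 and 1.76 for these genes in PK19. Thus 2 of the 6 members were at least 2-fold apart on the set 2 array of PK7, where 1.33% of all probe sets were, and 2 of 6 on that of PK19, against 0.883%. IGFBP7 was 0.82 higher and IGFBP5 0.60 higher on the PK7 set 2 array. In PK25 the same quantity was 0.31 for IGFBP3 and 0.12 for IGFBP4, and in V22 of the second series (set 5) it was 0.24 and 0.27.

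Hypoxia targets were high on the same arrays. The list held 16 genes, none of them an IGFBP, and 15 were measured. Its mean log2 level was 9.54, 10.26 and 9.49 in PK7, 9.71, 10.57 and 9.69 in PK19 and 9.12, 9.17 and 9.03 in PK25, against 9.02, 9.17 and 9.02 in V22 of the second series. The set 2 arrays of PK7 and PK19 thus held the highest list means of all arrays, and the other arrays of both clones also lay above V22 of the second series. Over the first series the means were 9.31, 9.26 and 9.68 in V8 and 9.31, 9.69 and 9.44 in V17, against 9.26, 9.90 and 9.38 in V22. The set 2 array thus also had the highest list mean in PK25, V17 and first-series V22, and set 5 in second-series V22. In V8 the set 2 array had the lowest. IGFBP3 on the V22 set 2 array, the highest of these first-series arrays for the list, was at 7.87, between its values on the other V22 arrays and those of V8. The median difference from V22 over the 15 genes was 0.73 in PK7, 0.82 in PK19 and 0.01 in PK25, where the medians over all probe sets were 0.0025, -0.0004 and 0.0191. Past the rule were 4 genes in PK7 and 5 in PK19, all higher, against 2.34% and 2.89% of all probe sets. In PK7 these were DDIT4, a stress-induced inhibitor of mTOR signalling (1.45), NDRG1 (1.60), the pyruvate dehydrogenase kinase PDK1 (1.15) and the vasoactive peptide gene ADM (1.01). In PK19 they were DDIT4 (1.55), NDRG1 (2.26), PDK1 (1.18), the mitophagy receptor BNIP3 (1.58) and the hexokinase HK2 (1.56). Without sets 2 and 5 the counts were 3 and 4, as ADM in PK7 (0.72) and PDK1 in PK19 (0.90) no longer passed, and the list medians were 0.48 in PK7 and 0.46 in PK19. The part of the hypoxia targets in the IGFBP values was not tested.

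**Figure D3:**
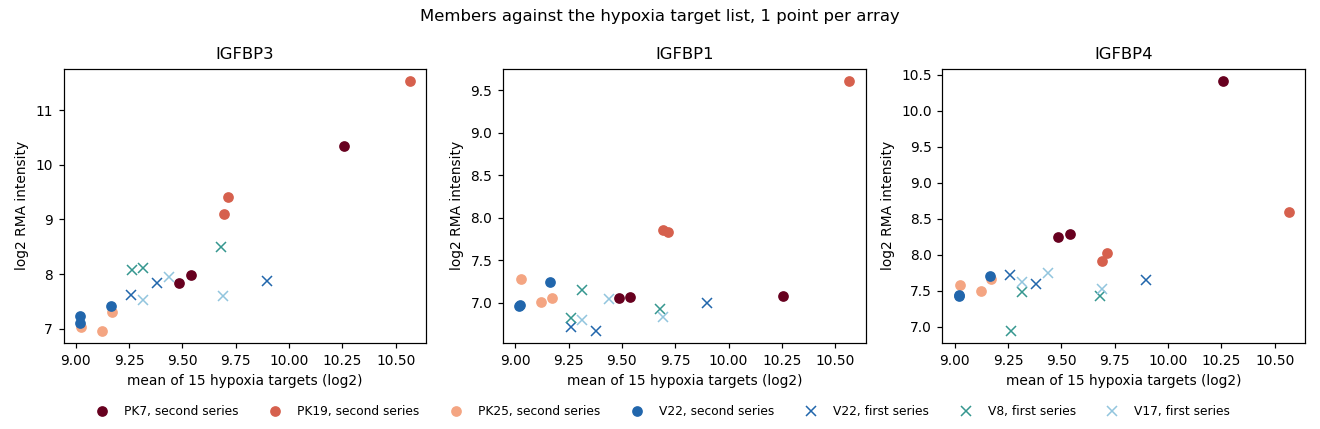
log2 RMA intensity of IGFBP3, IGFBP1 and IGFBP4 (vertical axes) against the mean log2 level of the 15 measured hypoxia targets (horizontal axes), with 1 point per array, filled circles for the second series and crosses for the first. IGFBP3 was highest on the 2 arrays with the highest list means (10.26 in PK7 and 10.57 in PK19), while IGFBP1 was high only in PK19 and IGFBP4 was highest in PK7.

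IGFBP5, an abundant matrix-associated member that binds IGFs and extracellular matrix, was low in every parkin clone and also in 1 vector clone. It was at 4.96, 5.51 and 4.86 in PK7, 4.97, 4.85 and 5.00 in PK19 and 5.45, 5.60 and 5.25 in PK25, against 6.49, 7.07 and 6.38 in V22 of the second series. All 9 parkin arrays lay below all V22 arrays, and all PK19 arrays lay below all PK25 arrays, while PK7 overlapped both. In the first series it was at 5.23, 5.65 and 5.35 in V8 and at 8.37, 9.16 and 7.99 in V17, against 8.38, 7.83 and 8.46 in V22. V8 was therefore far below V22, and V17 overlapped V22. The differences from V22 were -1.53 ± 0.30 in PK7 (SE, 2.90-fold lower), -1.71 ± 0.22 in PK19 (3.26-fold lower) and -1.21 ± 0.24 in PK25 (2.32-fold lower), while V8 differed by -2.82 ± 0.23 (7.05-fold lower). Without sets 2 and 5 all 4 remained past 2-fold, at -1.52, -1.45, -1.08 and -3.13 in the same order. V17 differed from V22 by 0.28 ± 0.40. As measured, V8 averaged 5.41, within the range of the parkin clone means (4.94 in PK19 to 5.43 in PK25). These means all lay below the array medians (6.21 to 6.37). The larger difference of V8 was taken from a higher V22 mean, 8.23 in the first series against 6.65 in the second.

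IGFBP5 also differed between the V22 arrays of the 2 series. It averaged 6.65 ± 0.37 in the second series and 8.23 ± 0.34 in the first (SD, n = 3 arrays each), a difference of -1.58 ± 0.22 (SE) with no overlap of arrays. Only 4 of 26947 probe sets, or 0.015%, differed by this much or more. In limma over all probe sets, with Benjamini-Hochberg adjustment, the adjusted p was 0.155 (unadjusted p = 0.0001263), and it ranged from 0.0475 to 0.485 over 10 alternative settings, of which a trended and robust variance gave the lowest. No member and no other probe set was called in this comparison (0.0%), in which 3570 probe sets had an unadjusted p under 0.05, and with a trended and robust variance 107 were called. IGFBP3 differed by -0.52 ± 0.11 (adjusted p = 0.199), a size that 1.33% of probe sets reached, and the other 4 members by -0.25 to 0.26. These p-values use arrays as observations and measure the spread between arrays only. The 15 hypoxia targets were all lower in the second-series V22 arrays, with a median of -0.39 against -0.0095 over all probe sets, and whether they bear on the IGFBP values was not tested.

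Markers of smooth muscle were measured beside IGFBP5, since 1 of them was lower in the same parkin clones. ACTA2, smooth muscle actin, differed from V22 by -1.68 in PK7, -2.85 in PK19 and -1.44 in PK25 on the log2 scale, with the arrays apart, and by -1.76, -2.88 and -1.57 without sets 2 and 5. V8, where IGFBP5 was lowest relative to V22, had an ACTA2 difference of -0.69 ± 0.058. Of the other 4 markers in the list, RGS5 was 1.46 higher in PK19 (1.49 without sets 2 and 5), and MYH11, DES and CNN1 did not pass 2-fold in any clone. The log2 of the summed intensity of the list was 9.09 to 10.24 on the parkin arrays, against 11.15 to 11.28 on V22 arrays of the second series and 11.23 to 12.04 on vector arrays of the first. ACTA2, with clone means of 8.22 to 11.9, was the brightest gene of the list, so the sum mostly follows it. The mean log2 of the list was 6.28 to 6.59 on the parkin arrays. It was 6.66 to 6.87 on second-series V22 arrays and 6.67 to 7.05 on first-series vector arrays. No marker can be placed at 0 from RMA intensity. Their part in the IGFBP5 values was not tested.

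IGFBP2, which glioblastomas often express highly, differed little among these clones. It was at 6.03, 6.13 and 5.99 in PK7, 5.97, 5.82 and 5.96 in PK19 and 6.05, 5.83 and 6.58 in PK25, against 5.81, 5.94 and 5.74 in V22 of the second series. The PK7 arrays lay just above the V22 arrays (0.22 ± 0.073, SE), and those of PK19 and PK25 overlapped them. The first-series values were 5.56, 6.00 and 6.12 in V8 and 5.84, 6.06 and 6.08 in V17, against 6.02, 6.29 and 5.93 in V22, with overlap throughout.

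IGFBP7, the low-affinity member found in vessel walls and tumour stroma, was at 8.58, 9.37 and 8.52 in PK7, 8.34, 8.39 and 8.50 in PK19 and 8.47, 8.60 and 8.43 in PK25, against 8.71, 8.59 and 8.61 in V22 of the second series. PK19 lay below V22 on every array (difference -0.23 ± 0.059, SE), and the PK7 set 2 array stood alone above the rest. The PK7 difference from V22 was 0.19 ± 0.28 with all arrays and -0.10 without sets 2 and 5, so its sign turned. First-series values of IGFBP7 were 8.80, 8.03 and 8.85 in V8 and 8.69, 8.56 and 8.95 in V17, against 8.79, 8.82 and 8.97 in V22. Here the set 2 array of V8 was the lowest of all arrays.

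The probe set shared by IGFBP6 and C12orf57 was at 11.36, 11.65 and 11.39 in PK7, 10.52, 10.90 and 10.40 in PK19 and 11.29, 11.37 and 11.34 in PK25, against 10.91, 10.99 and 10.87 in V22 of the second series. Its first-series values were 11.72, 11.78 and 11.90 in V8 and 10.99, 11.20 and 10.87 in V17, against 11.02, 11.04 and 11.02 in V22. PK7 (0.54 ± 0.099), PK25 (0.41 ± 0.043) and V8 (0.78 ± 0.054) lay above V22 on every array, PK19 (-0.32 ± 0.15) overlapped it, and none reached 2-fold.

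**Figure D4:**
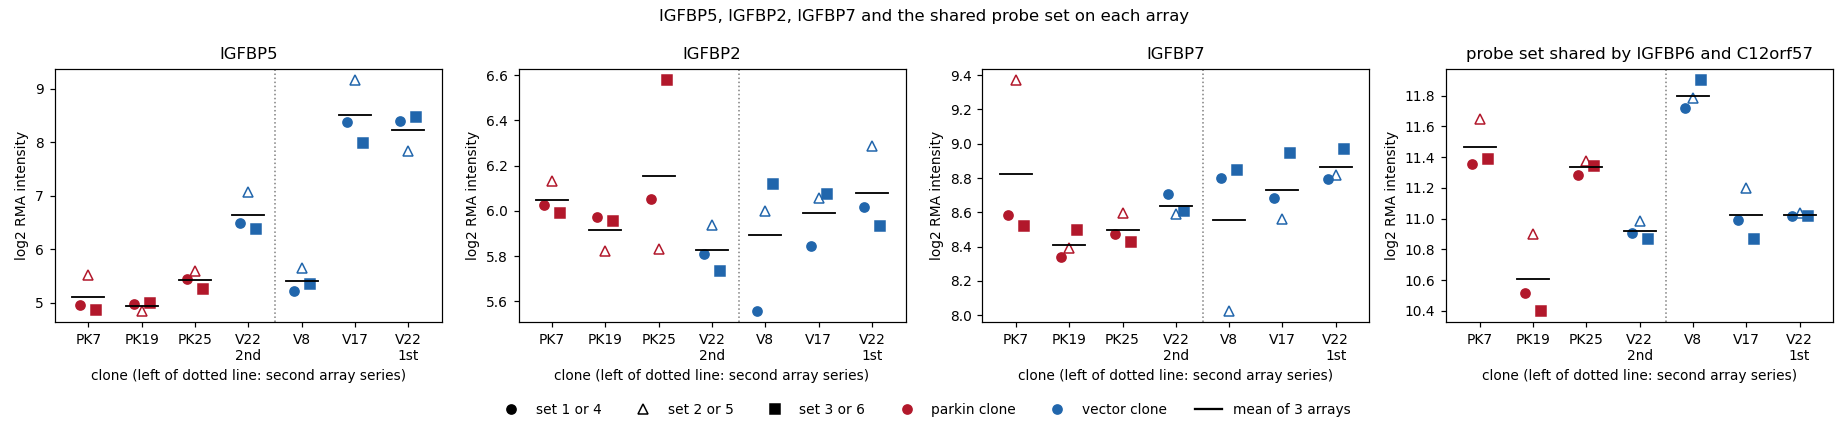
log2 RMA intensity (vertical axes) of IGFBP5, IGFBP2, IGFBP7 and the probe set shared by IGFBP6 and C12orf57 on each of the 21 arrays by clone (horizontal axes), drawn with the same colours and symbols as IGFBP3, IGFBP1 and IGFBP4. For IGFBP5 the V8 arrays (5.23 to 5.65) lie near the parkin arrays (4.85 to 5.60), and V22 averages 6.65 in the second series and 8.23 in the first.

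The parkin clones were also compared with the vector clones as groups, 3 clone means against 3, after the first series had been linked to the second through V22. The fits treat the linked clone means as independent, so their SE and p-values do not carry the full error of the link. No member was called by limma with Benjamini-Hochberg adjustment over all probe sets, a comparison in which 1 of 26947 probe sets (0.00371%) was called and 3787 had an unadjusted p under 0.05. IGFBP3 averaged 8.61 ± 1.46 in parkin clones and 7.38 ± 0.29 in vector clones (SD, n = 3 each), a difference of 1.23 ± 0.68 (SE, limma adjusted p = 0.432). IGFBP4 averaged 8.25 ± 0.71 in parkin clones and 7.39 ± 0.21 in vector clones, a difference of 0.86 ± 0.34 (limma adjusted p = 0.345). After linking, every parkin clone mean lay above every vector clone mean. As measured, PK25 (7.58) lay below V17 (7.63) and V22 of the first series (7.66). IGFBP2 also had its linked clone means apart, at 6.04 ± 0.12 in parkin clones and 5.74 ± 0.094 in vector clones (difference 0.30 ± 0.092, limma adjusted p = 0.319). The IGFBP2 difference was 0.09 with no adjustment for the series and 0.05 with first-series vector arrays only. Clone means were apart in 23.1% of all probe sets, so 2 of 6 members with means apart is close to the background. IGFBP1 differed by 0.39 ± 0.36 (limma adjusted p = 0.613) and IGFBP7 by 0.09 ± 0.14 (limma adjusted p = 0.768), and the shared IGFBP6 probe set by -0.04 ± 0.30 (limma adjusted p = 0.953).

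For IGFBP5 the size of the group difference depended on how the series and V8 were handled. The linked clone means were 5.16 ± 0.25 in parkin clones and 5.80 ± 1.71 in vector clones (SD, n = 3 each), a difference of -0.64 ± 0.78 (SE, limma adjusted p = 0.710). Linking placed V8 at 3.83, below its measured arrays (5.23 to 5.65) and below the lowest measured IGFBP5 array of any clone (4.85). The V22 difference used for linking was itself -1.58 ± 0.22 (SE over arrays). The difference was -1.62 ± 0.17 without V8 (limma adjusted p = 0.240), -0.08 without V17, -0.21 without V22 as a vector clone, -1.48 against V22 of the second series alone and -1.95 with no adjustment for the series. IGFBP3 was similarly tied to single clones, with 1.99 ± 0.40 without PK25 (limma adjusted p = 0.142), 0.53 without PK19 and 0.68 without sets 2 and 5, and IGFBP4 with 0.49 without PK7 and 0.55 without sets 2 and 5. The IGFBP3 difference also varied with the series, at 0.80 with no adjustment and 0.71 with first-series vector arrays only. The members were proposed with results of these data known. The linked difference is also built from the same clone differences from V22 that chose the family. These p-values are therefore no independent evidence.

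**Figure D5:**
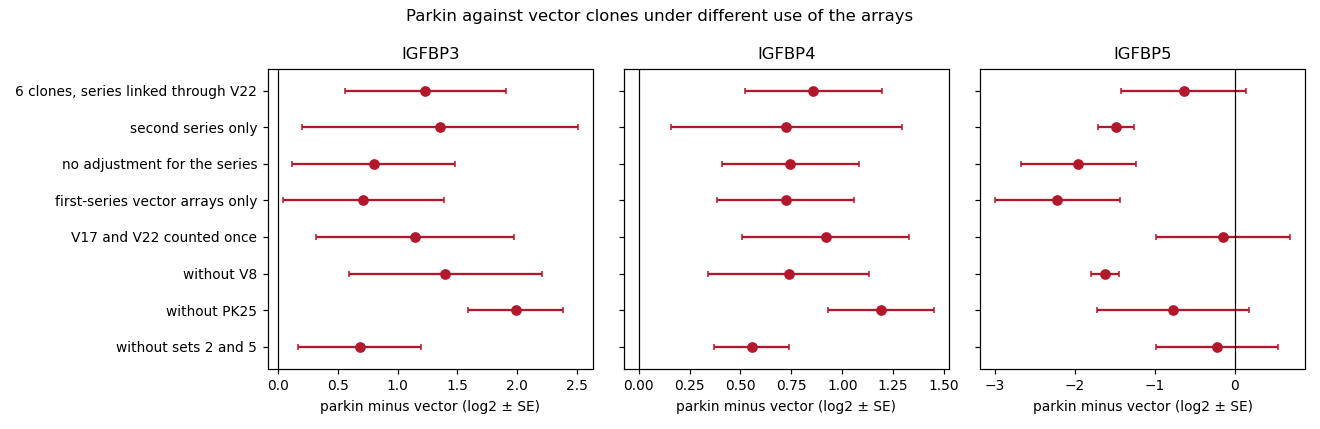
Parkin minus vector difference in log2 units with SE (horizontal axes) of IGFBP3, IGFBP4 and IGFBP5 under 8 ways of using the arrays (vertical axis). The IGFBP5 difference is -0.64 with 6 clones linked through V22 and -1.62 without V8, and the IGFBP3 difference is 1.99 without PK25.

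The measured receptors and adaptors of the IGF system lay close to V22. Of the 12 IGF ligands, receptors and adaptors in the list, 10 were measured, and none differed at least 2-fold from V22 in any clone or was called between parkin and vector clones. Their median difference between parkin and vector clones was 0.05, where the median over all probe sets was 0.0036, and IGF1R, the receptor that the ligands signal through, differed by 0.22 ± 0.074 (limma adjusted p = 0.319), with clone means of 7.09 in PK7, 7.17 in PK19 and 7.07 in PK25 against 6.95 in V22 of the second series. IGF1, the only ligand measured, had clone means of 3.55 to 3.85 over all clones, far below the array medians (6.21 to 6.37). Its flat values therefore say little about the ligands. IGF2 and INS had no probe set of their own.

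Among regulators that act on the binding proteins, STC2, STC1, HTRA1 and ADAM28 were higher in PK7 or PK19, and STC2 also in V8. All 9 genes of the list of complex partner, proteases and inhibitors were measured. Against V22, 2 were at least 2-fold higher with arrays apart in PK7, 3 in PK19, 0 in PK25, 1 in V8 and 0 in V17, and none was lower. Of all probe sets, 2.34%, 2.89%, 0.226%, 1.01% and 0.0297% differed this much either way, in the same order. STC2, a stanniocalcin that inhibits PAPPA, was higher than in V22 by 2.04 ± 0.48 in PK7, 1.48 ± 0.25 in PK19 and 1.16 ± 0.35 in V8 (SE). STC1, its relative, was 1.57 ± 0.31 higher and HTRA1, a serine protease that cleaves IGFBP5, 1.59 ± 0.16 higher in PK19. ADAM28, a metalloprotease that cleaves IGFBP3, was 1.48 ± 0.28 higher in PK7. All 6 of these differences stayed past 2-fold without sets 2 and 5, from 1.13 (ADAM28 in PK7 and STC2 in PK19) to 1.65 (STC2 in V8). PAPPA, which cleaves IGFBP4, did not pass, at 0.38 ± 0.27 in PK7, 0.34 ± 0.10 in PK19 and -0.20 ± 0.14 in PK25. No gene of the list was called between parkin and vector clones, where the list's median was 0.43 and its smallest limma adjusted p was 0.341.

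Among the 12 relatives that share the IGFBP-type N-terminal domain, CCN2, a matricellular protein also known as CTGF, was the only one past 2-fold with arrays apart, at 1.09 ± 0.39 in PK7 and 0.79 there without sets 2 and 5. Of all probe sets, 2.34% passed in PK7. CCN3, another matricellular relative, differed by -0.73 ± 0.12 between parkin and vector clones (limma adjusted p = 0.306). The list's median between parkin and vector clones was 0.07. Of the cell surface and matrix partners, 5 of 6 were measured and none passed. LRP1, an endocytic receptor that binds IGFBP3, was at 0.79 ± 0.30 in PK7, 0.85 ± 0.27 in PK19, and -0.04 ± 0.27 in PK25 relative to V22, and V8 was at 0.84 ± 0.14.

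The other chromosomal neighbours of the members all stayed within 2-fold of V22. IGFBP1 and IGFBP3 are adjacent among the measured genes on chromosome 7, and IGFBP2 and IGFBP5 on chromosome 2. Although adjacent, IGFBP1 and IGFBP3 parted in PK7 (0.01 and 1.46 relative to V22), and IGFBP2 and IGFBP5 parted in all parkin clones and in V8. The 20 other genes among the nearest 2 on either side of the members differed from V22 by -0.63 (TNS2 in V8) to 0.72 (TNS1 in V8) in all clones, so none reached 2-fold. A tensin gene, which encodes an adaptor between integrins and actin, was among these neighbours for all members but IGFBP2 and IGFBP7, with TNS3 beside IGFBP1 and IGFBP3, TNS1 by IGFBP5, TNS4 by IGFBP4 and TNS2 by IGFBP6.

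For the 4 members whose linked clone means spanned at least 1 log2 unit, the genes with the most similar pattern were sought among 8719 genes with a mean log2 intensity above 7, by Pearson's r over the 21 linked arrays. These arrays share clones, series and the linking values, so r is a description. The closest to IGFBP3 were CA12 (0.95), NDRG1 (0.94) and XPNPEP1 (0.94), of which CA12, a carbonic anhydrase, and NDRG1 are in the hypoxia list. For IGFBP1 they were LNPK (0.87), CTDP1 (0.87) and ZNF841 (0.86), and for IGFBP4 VKORC1 (0.94), EXT1 (0.93) and DDB1 (0.93). For IGFBP5 they were TMEM63B (0.92), TMEM63A (0.90), both encoding mechanosensitive channels, and NTNG1 (0.89). NTNG1, a netrin-related adhesion molecule, differed from V22 by -0.42 in PK7, -0.72 in PK19 and -0.39 in PK25, and V8 differed by -0.70, but 0.02 in V22 between the series, where IGFBP5 differed by -1.58.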

How the data were processed

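The authors deposited RMA intensity on a linear scale for 26947 probe sets on 21 arrays. RMA is named per the submitters' processing notes, with no version, and joint normalization of the 21 arrays is not stated in the sources used here. Intensities were turned into log2 values with no filter and no pseudocount. Gene symbols came from the array's annotation table, in which 19305 probe sets had 1 symbol, 1750 several and 5892 none or no entry.

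Groups came from the sample titles, and the series from scanner file prefixes in the labels, which is an assumption. For each probe set, mean V22 of the first series minus mean V22 of the second was subtracted from all first-series arrays. Parkin and vector clones were compared with limma 3.58.1 in R 4.3.3 (lmFit, eBayes) on 6 clone means, and V22 between series on its 6 arrays, each with a threshold of 0.05 on p-values adjusted by Benjamini-Hochberg over the whole table. The fit was tested on simulated data. No columns were identical. Tables were made with pandas 2.3.3.

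Named genes were all members, list genes past 2-fold with arrays apart or called, the 2 nearest measured neighbours on each side (given by their range) and the 3 genes of most similar pattern; the other list and marker genes in the text, which did not pass, were named after their values were seen. The members and lists were chosen with earlier results of these data known.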

Additional observations from a re-analysis of the deposited data

Results flagged for a closer look

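IGFBP4 was singled out because whole groups moved in opposite directions from V22 of their own series. Every PK7 array and every PK19 array lay above V22, and every V8 array lay below it. The difference of the differences was 1.84 log2 units between PK7 and V8 and 1.03 between PK19 and V8, and it was not tested. Without sets 2 and 5, IGFBP4 differed from V22 by 0.84 in PK7, 0.54 in PK19 and -0.21 in V8. The share of all probe sets with such opposite differences was not counted. No V22 array stood out from the other 5 in any of the 7 probe sets examined, where chance picks about 1 group in 20. Only V22 had enough arrays for this check, so single arrays of the other clones were not examined. Its arrays of both series were pooled, and a difference between the series can hide an outlying array.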

How the results depend on the processing

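No member was called between parkin and vector clones in any setting but one: with a replicate block on the set number (arrays as observations, first-series vectors, no linking), 1 member, IGFBP5, was called, at -2.22 (limma adjusted p = 0.00732), in a fit that called 4097 probe sets against 1. Correlations between arrays gave no sign that the set numbers pair parkin arrays with first-series vector arrays. Deviations of same-numbered arrays of these groups correlated at -0.207 to 0.193 (27 pairs) and others at -0.213 to 0.266. These correlations cannot show whether smaller groups of genes differ by set number in both series. The mean of the hypoxia targets was highest on set 2 in PK7, PK19, PK25, V17 and first-series V22, and lowest there in V8. Pairing within a series was not examined. The count of called probe sets was 844 with the clone as a random block, 0 against second-series V22 alone, 38 without PK25 and 3 without V8. Between V22 series, 1 member, IGFBP5, was called with a trended and robust variance. Leaving out pairs of sets gave 1 to 3 members past 2-fold in PK7, the lowest without sets 2 and 5. Some small parkin minus vector differences turned their sign. IGFBP1 was -0.057 without PK19, and 0.63 at most when other clones were left out. The shared IGFBP6 probe set was 0.21 against second-series V22 alone and between -0.21 and 0.22 when clones were left out. IGFBP7 was -0.10 with no adjustment for the series, -0.058 against second-series V22, -0.14 with first-series vectors alone or the replicate block, -0.0001 without the set 2 arrays of PK7 and PK19 (an alternative chosen after seeing the data), and between -0.14 and 0.17 when clones or sets were left out. The cause of these changes was not tested. Of the other tested values, 183 kept their direction and side of the threshold and 2, both IGFBP5, gained a call. Of the clone differences from V22, 171 moved by less than the spread between arrays and 4 by more, and 12 turned their sign, all of them at most 0.28 in size with all arrays. IGFBP3 and IGFBP4 in PK7 and IGFBP1 in PK19 went below 2-fold without sets 2 and 5 (0.73, 0.84 and 0.88). Averaging probe sets of a gene gave the same values, since each member has 1. The number of clones, 3 against 3, limits precision, and RMA gives no signal over background.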
